A study of Mus musculus with 3 samples.

Results

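Genes of glycogen synthesis and breakdown were followed in gastrocnemius, a calf muscle of mostly fast fibres, on Affymetrix mouse arrays. The 9 genes were listed by function: the enzymes Ugp2, Gys1, Gbe1 and Pygm, the phosphorylase kinase subunits Phka1, Phkb and Phkg1, and the glycogen-targeting phosphatase subunits Ppp1r3a and Ppp1r3c. Every probe set (a group of short probes against 1 transcript) annotated to 1 of these symbols alone was taken, which gave 18 probe sets for the 9 genes, out of 18193 named genes and 45101 probe sets on the array. All mice were male C57BL/6J, started at 6 weeks of age and fed for 15 weeks. HF + SFC mice ate a diet with 60% of its energy from fat and 20% from carbohydrate, to which 0.023% sodium ferrous citrate (SFC, an iron salt) was added. HF mice ate this high-fat diet without the added iron, and Control mice a diet with 10% of its energy from fat and 70% from carbohydrate. Both diets already contained iron. An age of 21 months stands in the sample labels, which differs from the ages in the study's design. Each group was measured on 1 array of mixed cDNA from its mice, so no value has a replicate error, no test was run, and how many mice entered each mix is not given in the sources used here. Mice had been fasted before the tissue was taken.

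Muscle stores glucose as glycogen. Ugp2 makes UDP-glucose, glycogen synthase (Gys1 in muscle) adds it to the growing chain and the branching enzyme Gbe1 forms the branch points. Glycogen phosphorylase (Pygm in muscle) releases glucose 1-phosphate from the chain ends. Phosphorylase kinase, which responds to calcium and to protein kinase A, switches phosphorylase on. Protein phosphatase 1, held on the glycogen particle by subunits such as Ppp1r3a and Ppp1r3c, switches phosphorylase off and glycogen synthase on. Both enzymes are thus controlled to a large extent by phosphorylation, which an array of mRNA levels does not measure.

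The promoters of 3 members are shown because Ppp1r3c had the highest ratio of HF to Control among the 9 genes, and Gys1 and Ppp1r3a the lowest. Each is the RefSeq sequence of assembly GRCm38.p6, from 250 bases before the annotated start of the gene to 50 bases after it, and all 9 members matched this table, with 10 such windows in all. Capitals mark CACGTG in Ppp1r3c (chr19:36736555-36736854, minus strand), the consensus site of the muscle factor MEF2 in Ppp1r3a (chr6:14755225-14755524, minus strand) and the GC box GGGCGG, read on either strand, in Gys1 (chr7:45434589-45434888, plus strand).
Ppp1r3c: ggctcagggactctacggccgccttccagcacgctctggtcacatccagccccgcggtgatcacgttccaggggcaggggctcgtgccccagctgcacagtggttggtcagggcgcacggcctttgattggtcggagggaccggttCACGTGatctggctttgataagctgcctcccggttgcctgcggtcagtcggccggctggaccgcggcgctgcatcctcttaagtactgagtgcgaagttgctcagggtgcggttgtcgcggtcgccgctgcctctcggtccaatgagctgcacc
Ppp1r3a: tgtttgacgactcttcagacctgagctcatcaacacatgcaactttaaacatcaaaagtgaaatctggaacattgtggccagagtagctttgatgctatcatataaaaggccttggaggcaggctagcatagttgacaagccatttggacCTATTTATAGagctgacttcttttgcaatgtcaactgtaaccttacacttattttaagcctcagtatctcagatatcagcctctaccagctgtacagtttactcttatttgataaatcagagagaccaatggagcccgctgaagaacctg
Gys1: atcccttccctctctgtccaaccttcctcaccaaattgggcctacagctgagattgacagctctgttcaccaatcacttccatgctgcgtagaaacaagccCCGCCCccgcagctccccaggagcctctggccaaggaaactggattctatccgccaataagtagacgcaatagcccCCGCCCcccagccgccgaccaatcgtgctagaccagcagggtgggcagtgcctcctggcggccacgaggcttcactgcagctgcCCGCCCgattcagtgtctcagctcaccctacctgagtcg

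Of the 9 members, only Ppp1r3c held CACGTG, against 7.15% of 32851 promoter windows of this length, and only Ppp1r3a held the MEF2 consensus, against 3.19%. The GC box was found in 5 members, Gys1, Phka1, Phkb, Gbe1 and Ugp2, and in 35.7% of all windows, with 3 matches in Gys1. Ppp1r3a was also the only member with TATAAA (13.6% of windows), of which 1 of its 2 matches overlaps the MEF2 site. The broader E-box CANNTG, which includes CACGTG, was present in all 9 members and in 72.3% of windows. These matches on both strands describe the letters only.

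The deposited values are MAS5 intensities (called signals here) on a linear scale, with a mean of 500.0 on every array after trimming 2% of probe sets at each end, and a median of 68.0 on the HF + SFC array, 67.4 on the HF array and 63.6 on the Control array. Each gene is given by its brightest probe set, and its ratios are on the log2 scale unless called a fold. Ratios were taken between arrays and never between genes, since probe sets differ in how brightly they bind. Calling a gene bright or dim, and sums of signals over genes, are for the same reason only a rough guide. As a yardstick of the spread between probe sets, the log2 ratios from the 2 brightest probe sets of 1 gene were compared. They differed with an SD of 0.23 for HF + SFC against HF, 0.26 for HF against Control and 0.22 for HF + SFC against Control. This was over 2456 genes with both above the 75th percentile of signal. Both probe sets read the same RNA on the same arrays. This SD thus holds no variation between mice, mixes or arrays and does not replace replicates. Control probe sets at both ends of the Gapdh transcript gave 3' to 5' ratios of 0.820 in HF + SFC, 0.832 in HF and 0.842 in Control, and those of beta-actin 1.147, 1.52 and 1.09, where a higher ratio goes with more degraded RNA or shorter labelled copies. The muscle identity of the samples was plain from creatine kinase Ckm (50185 in HF + SFC, 37327 in HF and 45640 in Control) and the fast-fibre actinin Actn3 (56212, 46350.5 and 52417 in the same order). The liver forms of the glycogen enzymes were dim: Gys2 read 24.9, 34.6 and 46.9, and Pygl 135, 128 and 120, in HF + SFC, HF and Control.

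As a group, the 9 glycogen genes were a little brighter on the HF + SFC array than on the HF array. Their median log2 ratio was 0.14, against 0.01 over all genes and 0.02 over the 6707 genes above the 75th percentile of signal, where 8 of the 9 members lie. In all, 8 members were higher and 1, Gbe1, was lower, whereas 51.4% of all genes and 53.7% of the bright genes were higher. Ppp1r3a alone was at least 1.5-fold higher, a fold reached by 13.7% of all genes and 0.298% of the bright ones (Ppp1r3a itself is the member that is not bright), and no member was at least 1.5-fold lower, which 13.5% of all genes and 0.641% of the bright ones were. The median was 0.05 after quantile normalization, where Phka1 and Ugp2 were lower in place of higher, and 0.06 with the mean of all probe sets of a gene. When the next brightest probe set was used the median of the 5 members that have one was -0.05.

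In HF against Control the glycogen genes were mostly a little lower. Their median log2 ratio was -0.09, against 0.01 over all genes and -0.03 over the bright genes, with 7 members lower and 2 higher (Ppp1r3c and Phkg1). Among all genes 49.3% were lower and among the bright genes 56.1%. No member passed 1.5-fold, a mark that 17.0% of all genes and 1.52% of the bright ones passed upward, and 12.2% and 1.07% downward. Gys1 and Ppp1r3a were at least 1.2-fold lower, as were 23.4% of all genes and 11.2% of the bright ones. The signs of Phka1 and Phkb turned positive after quantile normalization in this comparison, both from values near 0. Centring the arrays on their medians lowered all ratios here by 1 constant (the median of all genes was then -0.08), which by itself takes the small ratio of Phkg1 below 0.

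Set directly against Control, HF + SFC muscle gave a median log2 ratio of 0.05 for the 9 genes (0.02 over all genes and -0.01 over the bright genes), with 6 members higher, as were 52.4% of all genes and 48.9% of the bright ones, and 3 lower (Gys1, Gbe1 and Ugp2). None passed 1.5-fold in either direction, where 16.5% of all genes were higher and 12.4% lower by that fold (0.939% and 1.04% of the bright ones). Centring the arrays on their medians lowers every log2 ratio of this comparison by the same amount, which set the median of the members at -0.04 and that of all genes at -0.08 and gave the small ratios of Pygm, Phka1 and Phkg1 a negative sign. Each array serves in more than 1 of these comparisons, so they are not independent of each other.

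**Figure D1:**
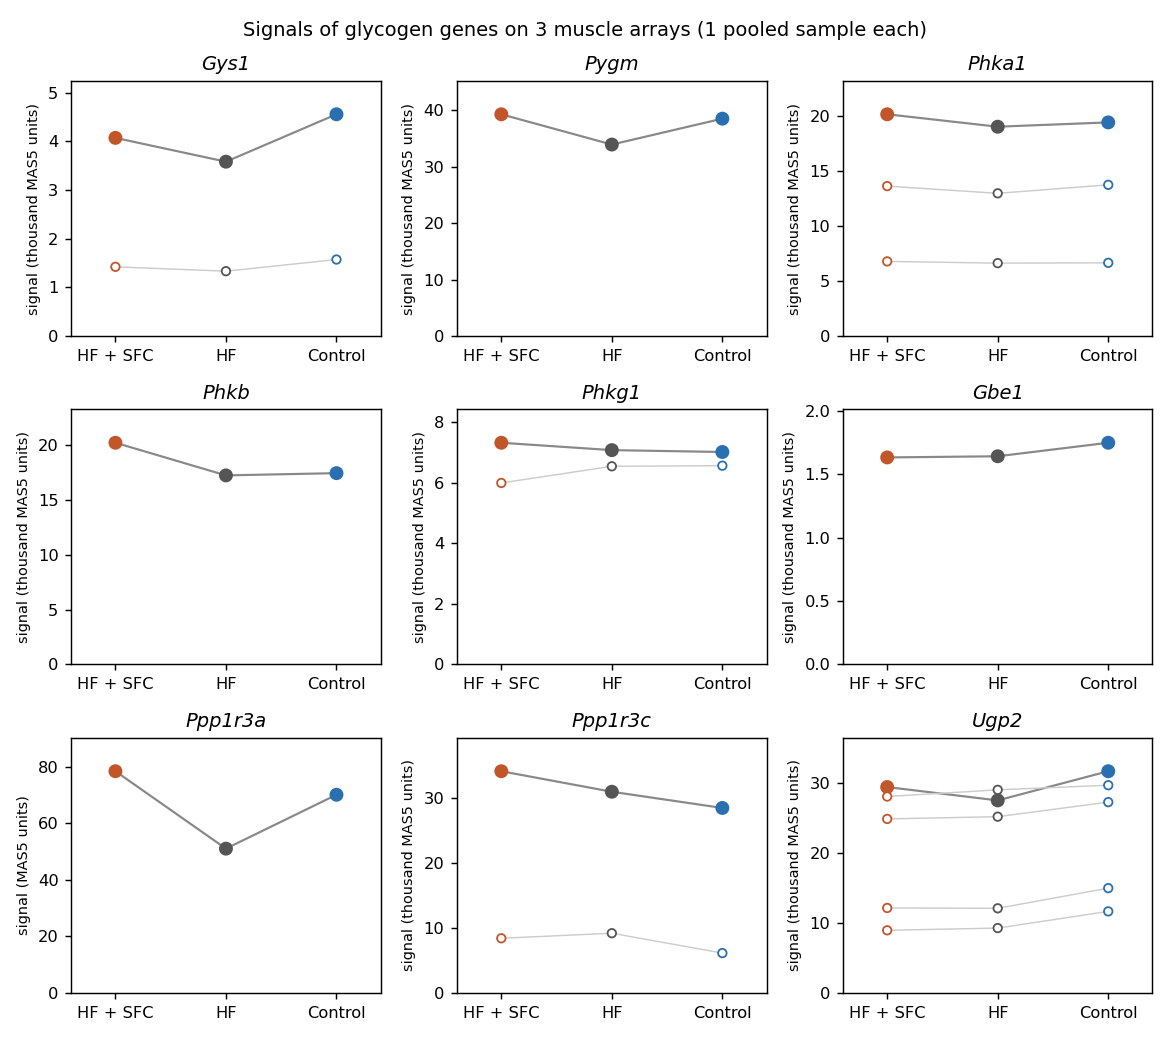
Signals of the 9 glycogen genes (MAS5 units, on the scale each axis gives, linear from 0) on the HF + SFC, HF and Control arrays, with 1 pooled sample each; filled points are the brightest probe set, open points the others, and lines join the points of 1 probe set. Gys1, Pygm and Ppp1r3a are lowest on the HF array, while Ppp1r3c on its brightest probe set is lowest on the Control array.

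All 8 probe sets of the synthesis genes Gys1, Ugp2 and Gbe1 had lower signals on both high-fat arrays than on the Control array. Of these 8, 5 are of Ugp2 and read the same RNA, and some differences were small. Lower in HF than in Control were 49.3% of all genes and 56.1% of the bright ones. Higher in HF + SFC than in Control were 52.4% and 48.9%. These are shares of genes in each comparison alone, and the share lower in both was not counted. Gys1, which catalyses the chain-building step, had a signal of 4069 in HF + SFC, 3579.7 in HF and 4553 in Control. The HF array was lowest and the HF + SFC array lay between it and Control. The log2 ratio of HF to Control was -0.35 (0.786-fold), and only 5.56% of the bright genes had a lower one. For HF + SFC the log2 ratio was 0.18 against HF and -0.16 against Control. A second, dimmer probe set of Gys1 ordered the arrays in the same way, at 1420.5, 1331 and 1570.4 in HF + SFC, HF and Control, with a log2 ratio of -0.24 for HF against Control and 0.09 for HF + SFC against HF. This dimmer probe set is of a type that can bind several transcripts. The ratios of Gys1 on its brightest probe set kept their sign under the 7 alternatives, of which the dimmer probe set is one. Among these, the filters on probe set type and on signal could not change them. The difference between HF and Control was larger than the probe set SD of 0.26 on the brightest probe set but not on the dimmer one.

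Ugp2, which supplies the UDP-glucose that Gys1 uses, had 29458 in HF + SFC, 27549 in HF and 31724 in Control on its brightest probe set. Control was the highest of the 3 arrays on this probe set and on each of the other 4. Of these, the second brightest is of a type that can bind several transcripts. Across the 5 probe sets the log2 ratio of HF to Control ran between -0.33 and -0.03, and that of HF + SFC to Control between -0.38 and -0.08. The strongest differences came from the 2 dimmest probe sets, at 12156, 12107 and 14991.5 and at 8958, 9278 and 11665 in HF + SFC, HF and Control. Between HF + SFC and HF the 5 probe sets went both ways, 2 higher and 3 lower, with log2 ratios between -0.05 and 0.10. Ugp2 was thus lower on both high-fat arrays than on the Control array, with no common direction between the arrays with and without added iron.

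Gbe1, the branching enzyme, had 1633 in HF + SFC, 1642 in HF and 1749 in Control on its only probe set. Its signals on the high-fat arrays were nearly equal (log2 ratio -0.01) and lay a little below Control, with log2 ratios of -0.10 for HF + SFC and -0.09 for HF. These differences are smaller than the spread between probe sets of 1 gene.

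Pygm, the muscle form of glycogen phosphorylase, had 39267 in HF + SFC, 33906 in HF and 38492 in Control on its only probe set. The HF array was the lowest and the other arrays were close to each other. The log2 ratio was 0.21 (1.16-fold) for HF + SFC against HF, above that of 90.1% of the bright genes. For HF against Control it was -0.18 (0.881-fold). Both values are inside the probe set SDs of 0.23 and 0.26, and they were 0.08 and -0.12 after quantile normalization. For HF + SFC against Control the log2 ratio was 0.03 and turned negative after quantile normalization or median centring. On the scale of log2 ratios Pygm and Gys1 were both lower in HF than in Control, Gys1 by more, and neither difference was tested.

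The phosphorylase kinase subunits differed little between HF and Control. Phkb, a regulatory subunit used in several tissues, had 20207 in HF + SFC, 17232 in HF and 17437 in Control. The HF + SFC array was the highest and the others were nearly equal. Its log2 ratio was 0.23 (1.17-fold) against HF and 0.21 (1.16-fold) against Control, above 91.7% and 89.5% of the bright genes, and it was the highest of the 8 bright members against HF. Both values are just inside the probe set SDs of 0.23 and 0.22. The gene has a single probe set, so no second reading was at hand.

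Phka1, the muscle form of the other regulatory subunit, had 20166 in HF + SFC, 19036 in HF and 19428 in Control on its brightest probe set. All 3 of its probe sets were brighter in HF + SFC than in HF, with log2 ratios between 0.03 and 0.08, and lower in HF than in Control, with log2 ratios between -0.08 and -0.01. These are small values, and on the brightest probe set they changed sign after quantile normalization. Phkg1, the catalytic subunit of muscle, had 7328, 7084 and 7023 in HF + SFC, HF and Control on its brightest probe set and 5999, 6549.7 and 6570.4 on the other. The first was highest and the second lowest in HF + SFC, with log2 ratios of 0.05 and -0.13 against HF. The second is of a type that can bind several transcripts. HF and Control differed by a log2 ratio of at most 0.01 on either probe set. The liver forms of the subunits, Phka2 (317, 284 and 287 in HF + SFC, HF and Control) and Phkg2 (335, 278 and 277), were also highest in HF + SFC on their brightest probe sets, with log2 ratios of 0.16 and 0.27 against HF, and Phkg2 had 0.28 against Control.

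Of the phosphatase-targeting subunits, Ppp1r3c was higher and the dim Ppp1r3a lower in HF against Control. Ppp1r3c, also called PTG, had 34107.5 in HF + SFC, 30949 in HF and 28456 in Control on its brightest probe set. Both high-fat arrays were above Control, and HF + SFC was the highest. The log2 ratio to Control was 0.26 for HF + SFC and 0.12 for HF. That for HF is inside the probe set SD of 0.26 and was 0.04 after median centring. On its other probe set Ppp1r3c had 8404, 9186 and 6125 in HF + SFC, HF and Control, a log2 ratio to Control of 0.46 for HF + SFC and 0.58 for HF, which is just short of 1.5-fold. Between the high-fat arrays the probe sets disagreed, with log2 ratios of 0.14 and -0.13, so that a higher Ppp1r3c on a high-fat diet was read by both probe sets but a difference with added iron was not.

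Ppp1r3a, also called GM, is the form of muscle that holds phosphatase 1 both on glycogen and on the sarcoplasmic reticulum. Its only probe set was dim, at 78.4 in HF + SFC, 51.0 in HF and 70.1 in Control, near the array medians of 68.0, 67.4 and 63.6. HF was the lowest array. The log2 ratio was 0.62 (1.54-fold) for HF + SFC against HF, -0.46 (0.728-fold) for HF against Control and 0.16 for HF + SFC against Control. At signals between the median and the 75th percentile, where Ppp1r3a lies, 7.24% of 4879 genes passed 1.5-fold upward in this comparison of HF + SFC with HF. With 50 units added to each signal before taking log2, HF + SFC stood at 0.35 against HF, below 1.5-fold. HF then stood at -0.25 against Control.

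**Figure D2:**
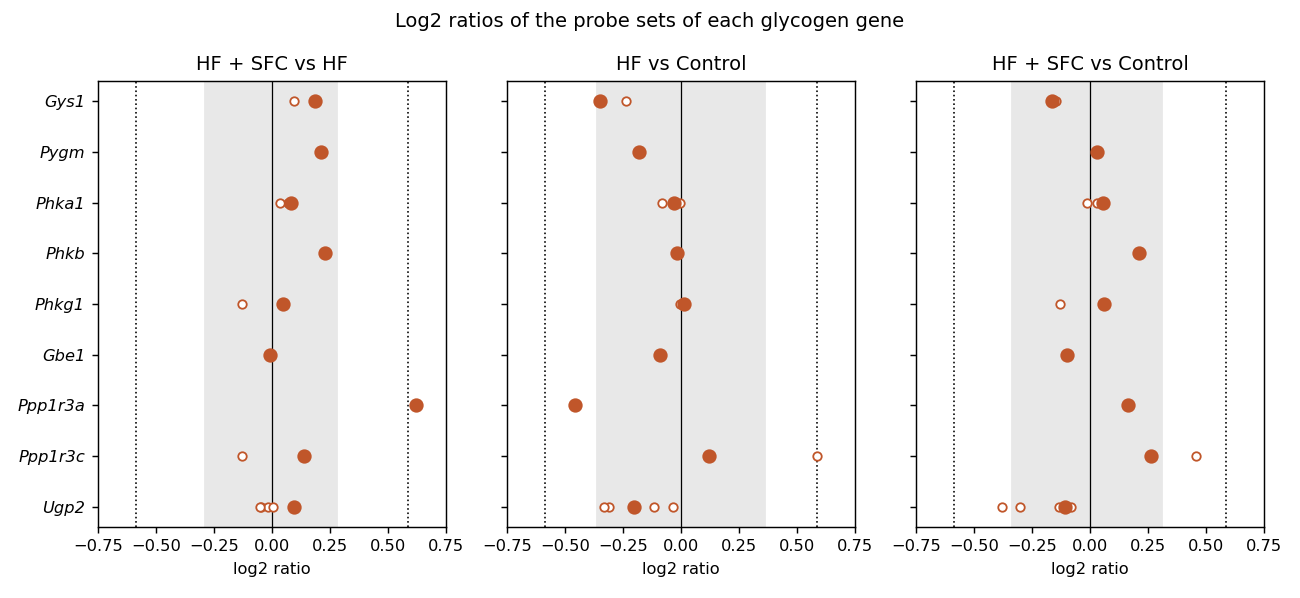
Log2 ratios of all 18 probe sets of the 9 genes in HF + SFC against HF, HF against Control and HF + SFC against Control; filled points are the brightest probe set of a gene and open points its others, the grey band spans the 5th to 95th percentile of 6707 bright genes and dotted lines mark 1.5-fold. In the left panel only Ppp1r3a, at 0.62, lies beyond the dotted lines, and in the middle panel the second probe set of Ppp1r3c, at 0.58, lies on it.

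**Figure D3:**
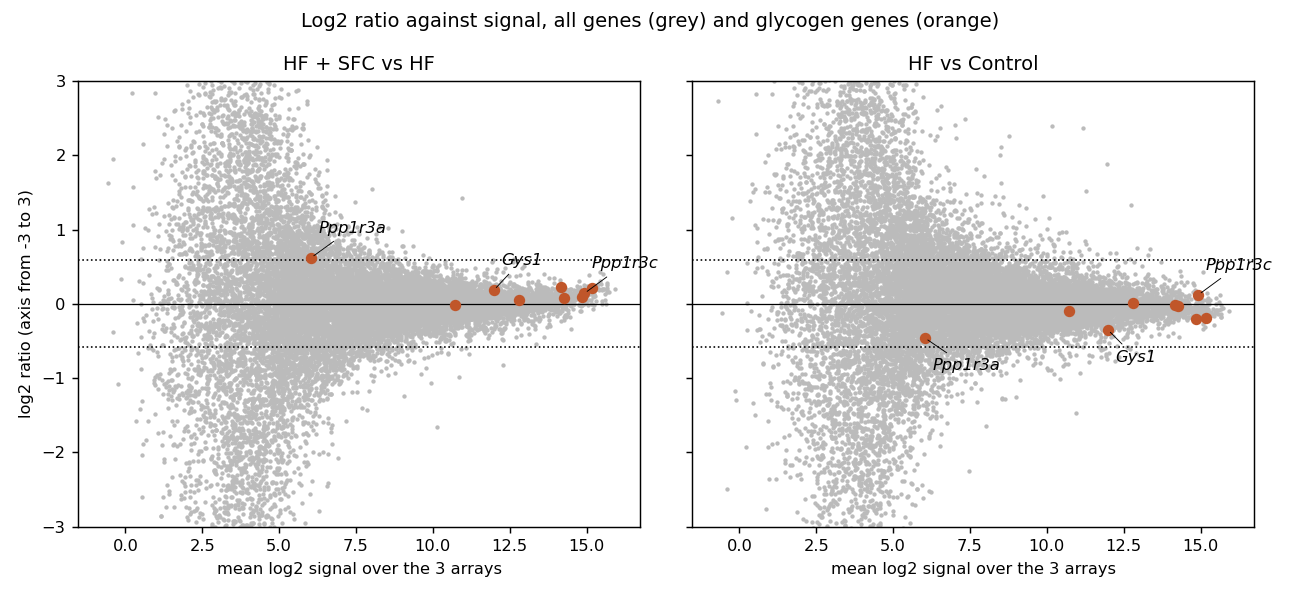
Log2 ratio in HF + SFC against HF (left) and HF against Control (right) (axis from -3 to 3, values beyond not drawn) against mean log2 signal over the 3 arrays, for 18193 genes in grey and the 9 glycogen genes in orange, with dotted lines at 1.5-fold. Of the 9, 8 lie at bright signals where few genes pass 1.5-fold, and Ppp1r3a lies at dim signals where the spread of all genes is wide.

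Over the 18 probe sets, fold values stayed between 0.915 and 1.54 for HF + SFC against HF, between 0.728 and 1.4996 for HF against Control and between 0.768 and 1.37 for HF + SFC against Control. For HF + SFC against HF, 12 probe sets were higher and 6 lower. For HF against Control, 3 were higher, both of Ppp1r3c and 1 of Phkg1, and 15 lower. Probe sets of 1 gene share their RNA and are not replicates.

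A further 25 genes of glycogen metabolism, with their 3 lists pooled, had medians close to those of the 9. In HF + SFC against HF, 20 were higher and 5 lower (median log2 ratio 0.10), and none passed 1.5-fold. Among all genes 51.4% were higher, and 13.7% passed 1.5-fold upward and 13.5% downward. In HF against Control, 9 were higher and 16 lower, with a median of -0.07, 1 gene at least 1.5-fold higher and 1 lower. Among all genes 49.3% were lower, and 17.0% passed 1.5-fold upward and 12.2% downward. Medians by list were -0.07 for enzymes, -0.004 for kinase and phosphatase genes and -0.19 for the list with laforin. Over the 22 genes above the median signal the median was -0.02, against -0.03 over the bright genes. In HF + SFC against Control, 14 were higher and 11 lower, with a median of 0.04, 3 genes at least 1.5-fold higher and 1 lower. Among all genes 16.5% passed 1.5-fold upward here and 12.4% downward.

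Among 9 other glycogen enzymes, the primer protein glycogenin (Gyg) had 19008 in HF + SFC, 18408 in HF and 20230.0 in Control, and phosphoglucomutase Pgm1, which links glucose 1-phosphate to glucose 6-phosphate, had 15505, 14913 and 15656. Gyg, at a log2 ratio of 0.05, was the lowest of the list above the median signal in HF + SFC against HF. Its other probe set, at 13875 in HF + SFC, 15523 in HF and 14826 in Control, gave -0.16 for HF + SFC against HF and 0.07 for HF against Control. The lysosomal glucosidase Gaa, at 4263, 3896 and 4569.5 in HF + SFC, HF and Control, had the lowest log2 ratio of the list above the median signal in HF against Control (-0.23), though its dimmer probe set gave 0.21. The highest was that of Pygb, the brain form of glycogen phosphorylase, at 349 in HF + SFC, 250.02 in HF and 174 in Control. Its log2 ratio was 0.48 for HF + SFC against HF, 0.52 for HF against Control and 1.002 for HF + SFC against Control. Pygb was thus lowest in Control, where Pygm was higher than in HF. Pgm2, at 125, 113 and 80.7, was 1.54-fold higher and the dim Gys2 0.532-fold in HF + SFC against Control. Pygb and Pgm2 also read below the 75th percentile of signal on every array (388 in HF + SFC and 389 in HF and in Control). In HF + SFC against Control, 16.5% of all genes and 0.939% of the bright ones were at least 1.5-fold higher.

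Among 12 other kinase and phosphatase genes, the largest downward ratio was that of Gsk3a, a kinase that phosphorylates and inhibits glycogen synthase. It had 4238 in HF + SFC, 3326 in HF and 5260.1 in Control on its only probe set. HF was the lowest array and Control the highest, the order also seen for Gys1. The log2 ratio of HF to Control was -0.66 (0.632-fold), where 1.07% of the bright genes were at least 1.5-fold lower, and that of HF + SFC was 0.35 against HF and -0.31 against Control. The related kinase Gsk3b had 4527, 3902 and 4453 in HF + SFC, HF and Control on its brightest probe set, and each of its 6 probe sets was lower in HF than in Control.

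Catalytic subunits of phosphatase 1 were higher in HF than in Control, with log2 ratios of 0.20 for Ppp1ca, 0.16 for Ppp1cb and 0.05 for Ppp1cc. These values are inside the probe set SD of 0.26, though the dimmer probe sets of Ppp1cb gave between 0.38 and 0.51. In this comparison 50.7% of all genes and 43.8% of the bright ones were higher. Ppp1cb, at 18856 in HF + SFC, 20209 in HF and 18068 in Control, had the lowest log2 ratio of the list above the median signal in HF + SFC against HF (-0.10), and each of its 4 probe sets was lower in HF + SFC than in HF. Of the other targeting subunits, Ppp1r3e had 195 in HF + SFC, 190.3 in HF and 121 in Control, a log2 ratio to Control of 0.69 for HF + SFC and 0.65 for HF. Its dimmer probe set gave 0.16 and 0.70. Ppp1r3f had the highest log2 ratio in HF + SFC against HF, 0.46, with 212, 154 and 206 in HF + SFC, HF and Control. Both Ppp1r3e and Ppp1r3f read below the 75th percentile of signal on every array (388 in HF + SFC and 389 in HF and in Control).

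Laforin (Epm2a) and malin (Nhlrc1), without which glycogen becomes poorly soluble, the glycogen-binding protein Stbd1 and its autophagy partner Gabarapl1 were all lower on the HF array than on the Control array. Over these 4 genes the median log2 ratio was -0.19. The lowest was Gabarapl1 at -0.52, with 1159 in HF + SFC, 1125 in HF and 1614 in Control, while its other probe set gave -0.09. Epm2a had the highest ratio in HF + SFC against HF (0.14) and Nhlrc1 the lowest (-0.06).

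**Figure D4:**
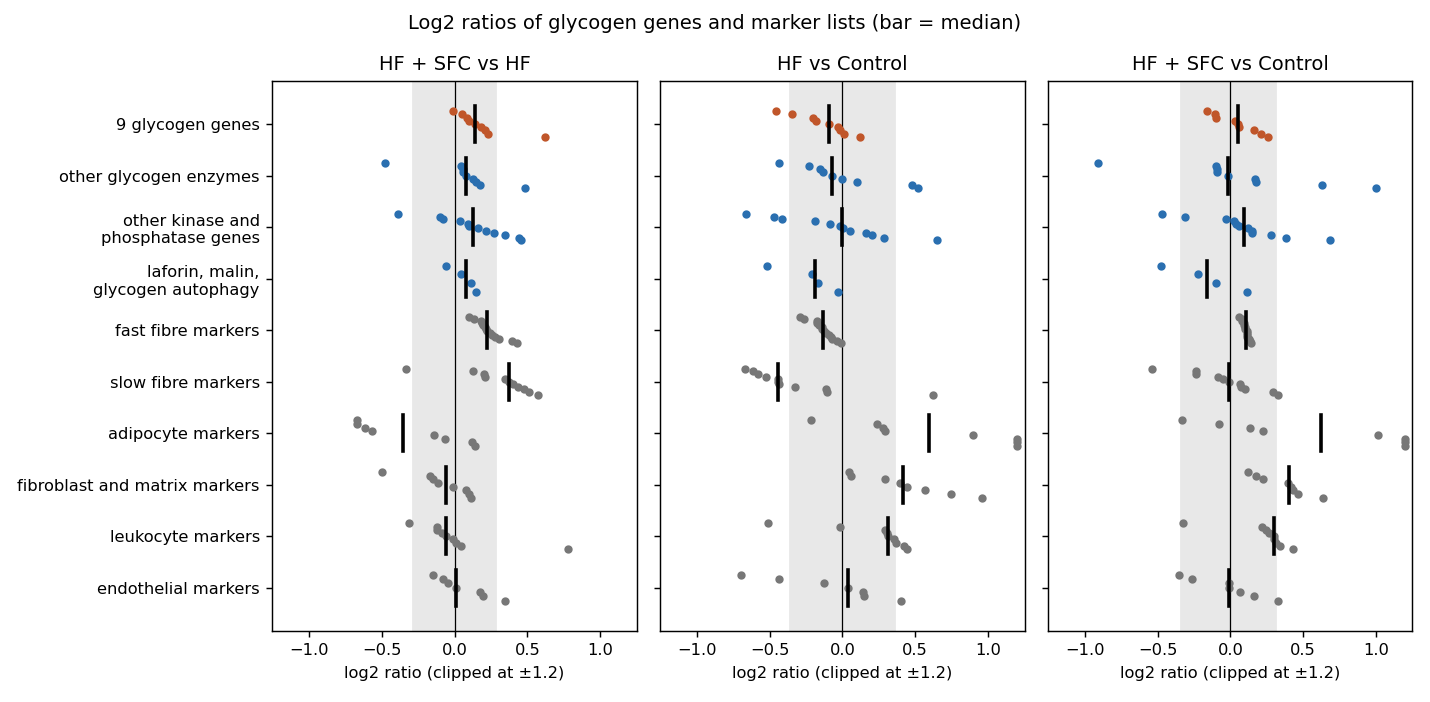
Log2 ratios of the 9 glycogen genes, of 3 lists of other glycogen genes and of markers of 6 cell types in the 3 comparisons, each point a gene on its brightest probe set (points beyond 1.2 drawn at the edge), with bars at the medians and a grey band for the 5th to 95th percentile of bright genes. Medians of the 9 genes (0.14, -0.09 and 0.05) and of fast fibre markers (0.22, -0.13 and 0.11) have the same sign in each panel, while that of slow fibre markers is -0.01 in the right panel.

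Markers of muscle fibres had medians of the same sign as the glycogen genes in HF + SFC against HF and in HF against Control. All 14 fast fibre markers were brighter in HF + SFC than in HF (median log2 ratio 0.22, summed signal 680821 in HF + SFC and 576773 in HF) and all 14 lower in HF than in Control (median -0.13, summed signal 633134 in Control). All counts of fibre markers here are on the brightest probe sets. Dimmer probe sets of Myh1, Tpm1 and Tnni2 gave log2 ratios of 0.165, 0.41 and 0.21 in HF against Control. In HF + SFC against HF, those of Tpm1 and Tnni2 gave -0.40 and -0.51. Another dimmer probe set each of Tpm1 and Tnni2 kept the signs of the brightest, as did the second ones of Ckm and Myh4 in these comparisons. Of 11 slow fibre markers, 10 were brighter in HF + SFC than in HF (median 0.37) and 10 lower in HF than in Control (median -0.44), with summed signals of 140512, 114300 and 144457 in HF + SFC, HF and Control. The median log2 ratio of the 9 glycogen genes was smaller in size than that of either fibre list in both comparisons. In HF + SFC against Control, all 14 fast fibre markers were higher (median 0.11), while 5 slow fibre markers were higher and 6 lower (median -0.01). Markers of other cells ran the other way in HF against Control: the median log2 ratio was 0.60 for 8 adipocyte markers, 0.42 for 8 fibroblast and matrix markers and 0.31 for 9 leukocyte markers. In HF + SFC against HF these medians were -0.35, -0.06 and -0.06, and that of 7 endothelial markers was 0.01 (0.04 in HF against Control). In HF + SFC against Control the medians were 0.62 for adipocyte, 0.41 for fibroblast and matrix, 0.30 for leukocyte and -0.01 for endothelial markers. None of these markers read 0, and the summed signal of adipocyte markers was 60379 in HF + SFC, 60994 in HF and 55505 in Control. That sum is mostly Lpl and Fabp4, which were 0.859-fold and 1.23-fold in HF against Control. Lpl was the only 1 of the 8 adipocyte markers that was lower, and 4 were at least 1.5-fold higher. Highest were the fat-cell hormone genes Lep and Adipoq, at 12.9-fold and 5.15-fold, and the lipid droplet gene Cidec, at 4.33-fold. Lep had 387 in HF + SFC, 592 in HF and 45.8 in Control. Of 5 hepatocyte markers only Alb lay above the median signal, and their summed signals were 126, 167 and 154. In whole muscle, fewer cells of a type and less RNA per cell cannot be told apart, and the part of these markers in the ratios of the glycogen genes was not tested. The beta-actin 3' to 5' ratio, at 1.147 in HF + SFC, 1.52 in HF and 1.09 in Control, was also highest on the HF array, and its part was not tested.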

How the data were processed

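Gastrocnemius RNA was measured on the Affymetrix GeneChip Mouse Genome array, with 1 array per group. Values were deposited by the authors as linear MAS5 intensities with a common trimmed mean (the submitters' processing notes name MAS5, and its version is not given in the sources used here). With 1 array a group, precision is limited by the number of arrays. Of 45101 probe sets, 64 controls were set aside and 34945 had 1 gene symbol in the platform annotation, 34741 of them matched by gene ID to RefSeq (GRCm38.p6, used for names and promoters only). Those with several symbols (932) or none were not used. Log2 ratios were taken with no offset from the brightest probe set (highest mean log2 signal), as the methods give no rule for genes with several. The 1.5-fold mark is the study's. Comparisons of groups had no test.

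The members and lists were chosen with earlier results of these data known. Named genes were the members, the genes of the 3 other glycogen lists past 1.5-fold or with the highest or lowest ratio above the median signal, and tissue checks. Pgm1, Gsk3b, Ppp1ca, Ppp1cc, Phka2, Phkg2, Stbd1, Lpl, Fabp4, Lep, Adipoq, Cidec, Myh1, Myh4, Tpm1 and Tnni2 were added to these named genes after their values were seen. Also tried were a mean over the probe sets of a gene, the next brightest probe set, quantile normalization, median centring, an offset of 50, removal of probe sets with IDs ending in _x_at or _s_at, a filter at the median signal, and thresholds of 2-fold and 1.2-fold. The steps were tested on simulated data. Python 3.11.15, numpy 2.4.6, pandas 2.3.3 and matplotlib 3.10.9 were used.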

Additional observations from a re-analysis of the deposited data

How the results depend on the processing

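For HF + SFC against HF, the count of 1 glycogen gene past 1.5-fold upward (Ppp1r3a) was 0 with a 2-fold threshold, with an offset of 50 and with the next brightest probe set, which Ppp1r3a lacks. In HF against Control, 2 genes (Gys1 and Ppp1r3a) were at least 1.2-fold lower, where none was at least 1.5-fold lower. The median over the members in HF + SFC against HF, 0.14, was 0.06 with the mean of all probe sets, 0.05 after quantile normalization and -0.05 with the next brightest probe set. In HF against Control, where it was -0.09, it stayed negative, between -0.17 with median centring and -0.03 with the next brightest probe set. In HF + SFC against Control, where it was 0.05, it was -0.08 with the next brightest probe set and -0.04 with median centring, which also set all genes at -0.08. The cause of these differences was not tested, apart from the constant that centring adds. Values of single members moved by more than the spread between probe sets for Ppp1r3a with the offset and for Ppp1r3c on its second probe set in 2 comparisons. Leaving out _x_at and _s_at probe sets and the filter at the median signal could not move the members' values, since none of their brightest probe sets is affected. Dim signals limit Ppp1r3a. No paired analysis was possible because each group had 1 array. No array could be left out for the same reason.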
